A study of Mus musculus with 14 samples.

Results

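Interferon-stimulated genes are the genes that cells switch on when interferons, the cytokines of antiviral defence, bind their receptors. Their mRNA levels were followed here through 36 genes named by symbol, all of which were found once among the 35275 genes of the expression table. The members were fixed as a list of known genes of this response and not by a threshold on their values. The list was chosen with earlier results of these data known, so member counts set beside shares of all genes are descriptions.

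The samples were mouse KMF ovarian cancer cells, derived from ID8 cells passaged in C57Bl6 mice, and 4 lines made from them. All were grown for 5 days as anchorage-independent tumorspheres in serum-free PromoCell XF medium, and the labels list no treatment. The 5 groups were parental KMF cells (n = 3), KT13 FAK-/- cells (called FAK KO, n = 3), KT13 cells that re-express lentiviral GFP-FAK (FAK-WT, n = 3), KT13 cells with the GFP-FAK-R454 mutant that lacks kinase activity (FAK-R454, n = 2), and KT13 cells that express β-catenin ΔGSK, which lacks the phosphorylation sites that mark β-catenin for degradation (n = 3). FAK, encoded by Ptk2, is a tyrosine kinase of cell adhesion sites. KT13 is a single CRISPR clone of KMF cells, and the 3 lines made from it by viral transduction all carry its edited Ptk2 alleles. A difference between KMF and any of the 4 other lines therefore cannot be told apart from a difference between 1 clone and its parental population. The paper describes drug selection and flow-cytometry enrichment of the transduced lines, and no empty-vector line is among the samples. A difference between FAK KO and any transduced line therefore cannot be told apart from an effect of transduction, selection or GFP. The study's methods describe the KMF samples as independent and taken at various passages, and the samples of the other 4 lines as replicates without saying whether they came from separate cultures, so p-values measure the spread between these samples, which may be partly technical.

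Type I interferons bind the receptor pair IFNAR1 and IFNAR2, whose kinases JAK1 and TYK2 phosphorylate STAT proteins, among them STAT2. With IRF9 these form the complex ISGF3, which binds a short DNA element, the interferon-stimulated response element (ISRE), in promoters of target genes. Type II interferon acts mainly through another element, the gamma-activated site (GAS). Many targets also have a low level without added interferon, and the products range from sensors of viral nucleic acid to enzymes and membrane proteins that block viral entry and replication.

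The element that names the pathway could be read directly in promoter sequence. RefSeq promoter windows of GRCm38.p6, covering 250 bases before to 50 bases after each start, were given for 25 of the 36 members. Usp18, Oas2, Mx1, Mx2, Dhx58, Ifi27, Rtp4, Parp9, Parp14, Tmem173 and Zbp1 had none. The ISRE core GAAANNGAA, searched on both strands, was found in 15 of the 25 members (60%) and in 9.76% of the 27025 genes with a window. The GAS core TTCNNNGAA was found in 7 of the 25 (28%) and in 9.55% of all genes; its letters can overlap those of the ISRE core. These are matches of letters only. The 6 sequences that follow show members whose levels are described below, each as the matching stretch with 20 bases on either side, read 5′ to 3′ on the strand of the gene. Capitals mark the ISRE core, which reads TTCNNTTTC where it lies on the opposite strand, and overlapping copies run together.
Ifit3, chr19:34583354-34583455, + strand: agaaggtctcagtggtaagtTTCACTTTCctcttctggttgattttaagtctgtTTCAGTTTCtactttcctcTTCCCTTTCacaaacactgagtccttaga
Ifit1, chr19:34640760-34640833, + strand: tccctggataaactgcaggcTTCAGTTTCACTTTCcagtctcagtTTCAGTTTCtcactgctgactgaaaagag
Isg15, chr4:156200856-156200916, - strand: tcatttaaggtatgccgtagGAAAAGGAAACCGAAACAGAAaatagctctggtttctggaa
Oas3, chr5:120777700-120777754, - strand: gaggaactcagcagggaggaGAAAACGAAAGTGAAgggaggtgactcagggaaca
Bst2, chr8:71537568-71537622, - strand: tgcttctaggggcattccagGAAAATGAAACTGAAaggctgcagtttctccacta
Ifitm2, chr7:140955979-140956027, - strand: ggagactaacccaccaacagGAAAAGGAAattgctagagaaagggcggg

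In Ifit3 the 3 cores began 155, 121 and 102 bases before the start, in Ifit1 109, 103 and 84 bases before it, and in Isg15 the 3 overlapping cores began 78, 72 and 66 bases before it. Oas3 and Bst2 each had 2 overlapping cores, and Ifitm2 had 1. The core was also found in Ddx58, Eif2ak2, Ifi44, Ifih1, Ifitm3, Oas1a, Rsad2, Stat2 and Trim25. It was not found in the windows of Cmpk2, Ifit2, Irf7, Irf1, Irf9, Oasl1, Oasl2, Xaf1, Dtx3l and Ifi35. Ifit3, with 3 cores, and Ifit2, with none in its window, were both called in comparisons of FAK-WT, and Trim25, with 1, and Ifi35, with none, differed by under 1.6-fold.

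The members covered a very wide range of levels (FPKM, fragments scaled by gene length and library depth, a scale on which genes can be compared). Of the 36, 26 had a mean above 1 FPKM in at least 1 line and 10 were at or under 1 FPKM in every line. Of the 26, 9 rose above 10 FPKM and 2, Ifitm2 and Ifitm3, above 100 FPKM. FAK-WT had 24 members above 1 FPKM, FAK-R454 and β-catenin ΔGSK 23 each, and KMF and FAK KO 21 each, and 19 members were above it in every line. FAK-WT had 23 when its sample 2 was left out, a check added after the data were seen. The lines therefore shared measurable expression of most of these genes, and for 17 of the 26 the highest line mean was 1 to 10 FPKM. The members Rsad2, Mx1, Mx2, Ifi44 and Zbp1 stayed under 0.5 FPKM in all 14 samples.

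Between the highest and the lowest line mean, on the log2(FPKM + 0.1) scale used for all comparisons, the 26 expressed members had a median fold of 1.64, beside 1.47 for all 12256 expressed genes. The fold exceeded 2 in 7 of the 26 (26.9%), beside 23.1% of all expressed genes, and was under 1.5 in 9. The 7 were Oas2 at 10.4, Usp18 at 5.78, Ifit3 at 5.43, Ifit2 at 4.99, Cmpk2, Tmem173 at 2.38 and Irf7 at 2.35. FAK-WT was the highest line for 8 of the 26 members and for 11.1% of all expressed genes, and without its sample 2 for 6 members and 11.5%. β-catenin ΔGSK was the lowest line for 11 members, beside 35.3% of all expressed genes, and the highest for 7, beside 25.9%. As a group the members thus differed between lines about as much as other genes do, with most of the variation in a few of them.

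**Figure D1:**
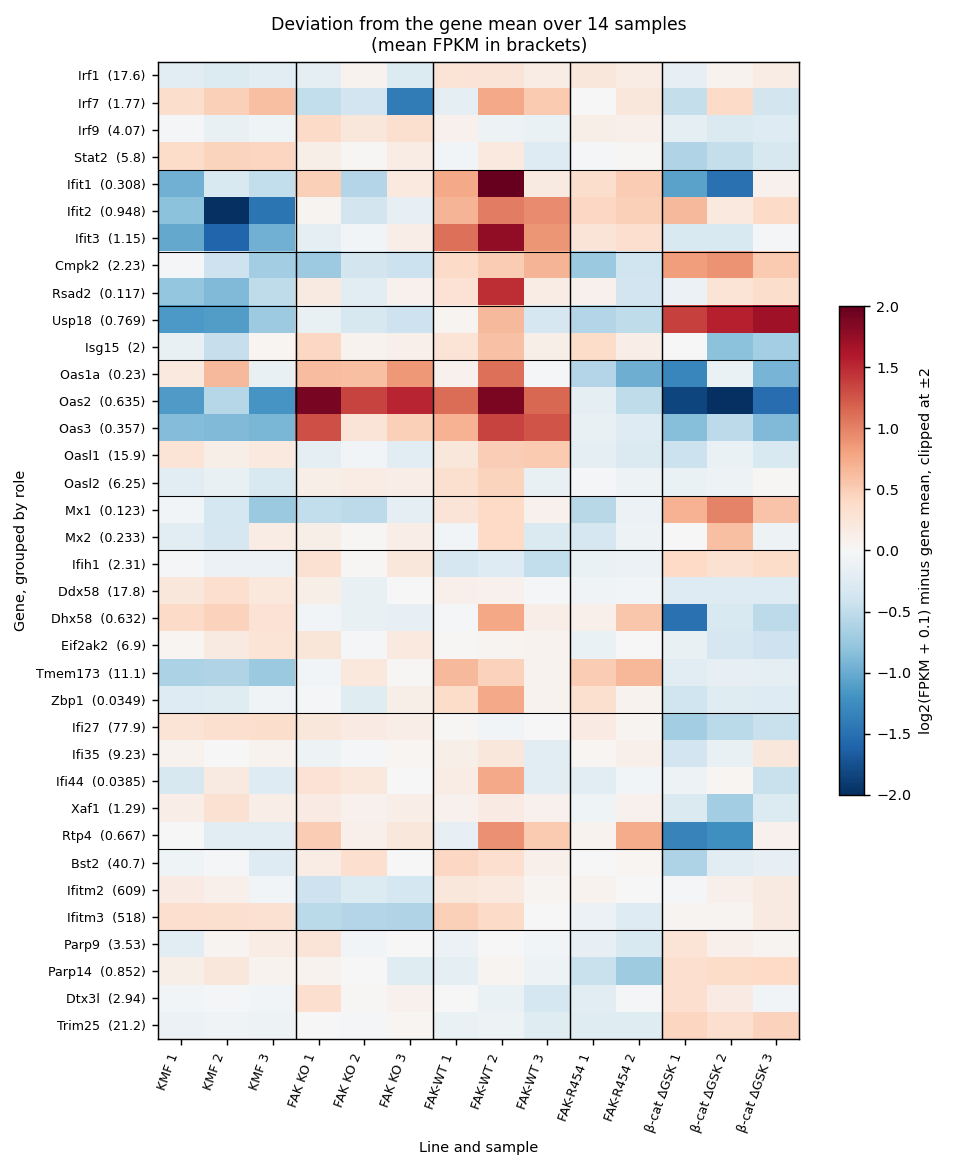
Each row is a member, ordered by role, and each column a sample of the 5 lines; color is log2(FPKM + 0.1) minus the gene's mean over the 14 samples, clipped at 2 in either direction, and the mean FPKM stands in brackets. Oas2 is low in KMF, FAK-R454 and β-catenin ΔGSK samples, Usp18 is high in the 3 β-catenin ΔGSK samples, and FAK-WT sample 2 is dark red in many rows.

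FAK-WT sample 2 stood apart from the other samples of its line in these genes: it was the highest of the 3 in 24 of the 36 members and in 10 of the 10 low members, while it was highest for 30.3% of all 16750 genes detected in the line. Its mean log2(FPKM + 0.1) over the 36 members was 1.99, against 1.65 in sample 1 and 1.57 in sample 3. The counts of members above 1 FPKM or highest in FAK-WT, and the member counts of each FAK-WT comparison, are given with and without it. Counts of the pathway genes and of the wider list below are given only with it. Mean Ptk2 mRNA was 15.5 FPKM with β-catenin ΔGSK, 19.0 in FAK KO cells, 24.3 in KMF, 43.4 with FAK-WT and 62.4 with FAK-R454, and mean Ctnnb1 was 145 FPKM in FAK KO cells and 214 with β-catenin ΔGSK. These whole-gene values show the re-expression and do not separate edited from intact alleles. Of 10 leukocyte markers measured, 7 were under 0.1 FPKM in every sample, 3 of them at 0, and the defining marker Ptprc was at 0 in 13 of the 14. Their summed level was 6.71 to 12.4 FPKM in FAK-WT and 1.22 to 4.41 elsewhere, nearly all of it Cd68, and FAK-WT sample 2, at 7.14, was not the highest of its line. Of 5 endothelial markers, 3 were under 0.1 FPKM throughout, and the summed level, mostly Tek, was 29.6 to 30.0 FPKM in KMF, 17.2 to 19.3 in FAK KO, FAK-WT and FAK-R454 and 6.58 to 7.44 with β-catenin ΔGSK. The part of either set in the results was not tested. Red cell markers summed to at most 0.325 FPKM, and of 11 genes of ovarian surface epithelial or mesothelial cells 9 were above 1 FPKM in at least 1 line. In bulk RNA, fewer cells that express a gene and less of its RNA per cell cannot be told apart.

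Lines were compared in 6 pairs with limma, fitted to the samples of that pair alone over genes with a mean above 1 FPKM in either line. Calls required a Benjamini-Hochberg adjusted p under 0.05 over all genes tested, a change of 2-fold or more and a mean above 1 FPKM in the higher line. The comparisons share lines, so a gene that is high or low in FAK KO cells appears in 4 of them. Of the members called, Ifit2, Ifit3, Irf7, Oas2 and Usp18 had a mean at or under 1 FPKM in the lower line of each of their calls, so they were tested only because the other line was high, and the counts of calls are descriptions. The same holds for every later call of a gene with a mean at or under 1 FPKM in its lower line. A fit without a FAK-R454 sample keeps 1 sample of that line, which is assumed to vary like those of the other line. Against FAK-WT such fits passed 4 genes higher and 3 or 4 lower of all those tested, so a call lost in them says nothing of its stability.

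FAK-WT against FAK KO cells compares the clone with and without re-expressed FAK, together with its transduction and selection. Of 24 members tested, 4 were called higher (Ifit3, Irf7, Ifit2 and Cmpk2) and 0 lower, where 2.91% of the 11841 genes tested were called higher and 1.71% lower. By adjusted p alone 8 members were higher and 3 lower, beside 15.6% and 25.2% of all genes, and limma-voom on recovered fragments gave the same counts. The median log2 fold change of the members was 0.08, and that of all genes -0.08. Irf1, Oasl1, Ifitm2 and Ifitm3 made up the other higher members, and Irf9, Ifih1 and Ifi27 were the lower ones. Without FAK-WT sample 2 the called members were 2, Ifit3 and Cmpk2, the split by adjusted p was 6 higher and 1 lower, and the median was -0.01. All genes past the adjusted p fell from 1851 higher and 2986 lower to 1259 and 1854, with a median of -0.08. Without FAK-WT sample 3 the median of the members was 0.21, and that of all genes -0.07. Without FAK KO sample 1 or 3 the lower members numbered 1 and 0, where all genes had 2084 and 1536 lower. With each chromosome centred on its own median, the split by adjusted p was 9 higher and 1 lower, where all genes had 1935 and 1700.

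FAK-R454 against FAK KO cells makes the same comparison for FAK without kinase activity. Of 24 members tested, 0 were called higher and 1, Oas2, lower, where 1.93% of 11818 genes were called higher and 0.812% lower. By adjusted p alone 3 members were higher (Ifitm2, Ifitm3 and Tmem173) and 2 lower (Oas2 and Trim25), beside 9.78% and 9.89% of all genes. On recovered fragments limma-voom also called 0 higher, with 6 higher by the adjusted p, where all genes higher rose from 1156 to 1374. The median was -0.08, and that of all genes -0.03. This comparison has 2 FAK-R454 samples, and without FAK KO sample 2 it called 1 member higher and had 5 higher and 5 lower by adjusted p, where the counts of all genes rose from 1156 and 1169 to 1931 and 2459. Without FAK-R454 sample 1 or 2 it had 1 and 1 members, where all genes fell to 312 and 236 or 335 and 274.

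β-catenin ΔGSK against FAK KO cells had the most members past the adjusted p, as it had the most genes overall. Of 25 members tested, Usp18 and Cmpk2 were called higher and Oas2 lower, where 5.13% of 11915 genes were called higher and 6.99% lower. By adjusted p alone 6 members were higher and 10 lower, beside 23.7% and 34.4% of all genes. Without β-catenin ΔGSK sample 2 the split was 6 and 6, where all genes past it fell from 2828 and 4100 to 2370 and 3395. With median-of-ratios scaling or with each chromosome centred it was 7 and 8, where all genes had 3369 and 3424 or 3435 and 3329. The lower 10 were Oas2, Ifi27, Isg15, Stat2, Xaf1, Irf9, Bst2, Eif2ak2, Tmem173 and Ddx58, and the higher 6 were Usp18, Cmpk2, Ifitm3, Ifit2, Ifitm2 and Trim25. The median was -0.07 for members and -0.09 for all genes, and with each chromosome centred these were 0.14 and -0.01.

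KMF against FAK KO cells compares the parental population with the clone. Of 22 members tested, Irf7 was called higher and Oas2 lower, where 3.97% of 11893 genes were called higher and 4.04% lower. By adjusted p alone 6 were higher (Irf7, Ifitm3, Ifitm2, Oasl1, Stat2 and Ddx58) and 5 lower (Oas2, Tmem173, Irf9, Oasl2 and Bst2), beside 23.1% and 28.7% of all genes. With each chromosome centred the split was 8 higher and 4 lower, where all genes went from 2749 and 3412 to 2621 and 2462. Without FAK KO sample 3 the fold of Irf7 fell under the threshold and 0 members were called higher, where all genes called higher went from 472 to 474.

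The last 2 comparisons do not use FAK KO cells. Between FAK-WT and FAK-R454 cells, 24 members were tested, Oas2 and Cmpk2 were called higher in FAK-WT and 0 lower, where 0.696% of 11782 genes were called higher and 0.747% lower. By adjusted p alone 3 were higher, with Oasl1 the third, and 0 lower, beside 3.38% and 4.44% of all genes. Without FAK-WT sample 2, 0 members passed the adjusted p, where all genes past it fell from 398 higher and 523 lower to 64 and 93. Without FAK-WT sample 1, 1 member was called, beside 63 genes higher and 70 lower (82 and 88 with all samples). Without FAK-WT sample 3, 3 were called and 9 passed the adjusted p, where all genes past it rose to 1505 and 1807. Between FAK-WT and KMF cells, 24 members were tested and 4 were called higher in FAK-WT (Ifit3, Oas2, Ifit2 and Tmem173) and 0 lower, where 3.82% of 11847 genes were called higher and 2.11% lower. By adjusted p alone 8 were higher and 3 lower (Stat2, Ifi27 and Ddx58), beside 18.2% and 23.5% of all genes. Without FAK-WT sample 2 this comparison had 3 called, 5 higher and 2 lower by adjusted p, and a member median of -0.08 instead of 0.02. All genes past the adjusted p fell from 2151 higher and 2783 lower to 1521 and 2076, and their median was -0.04 either way. Without KMF sample 2 the comparison had 1 member lower, where all genes had 2167 lower. On recovered fragments limma-voom gave the same 2-fold counts for both of these pairs.

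**Figure D2:**
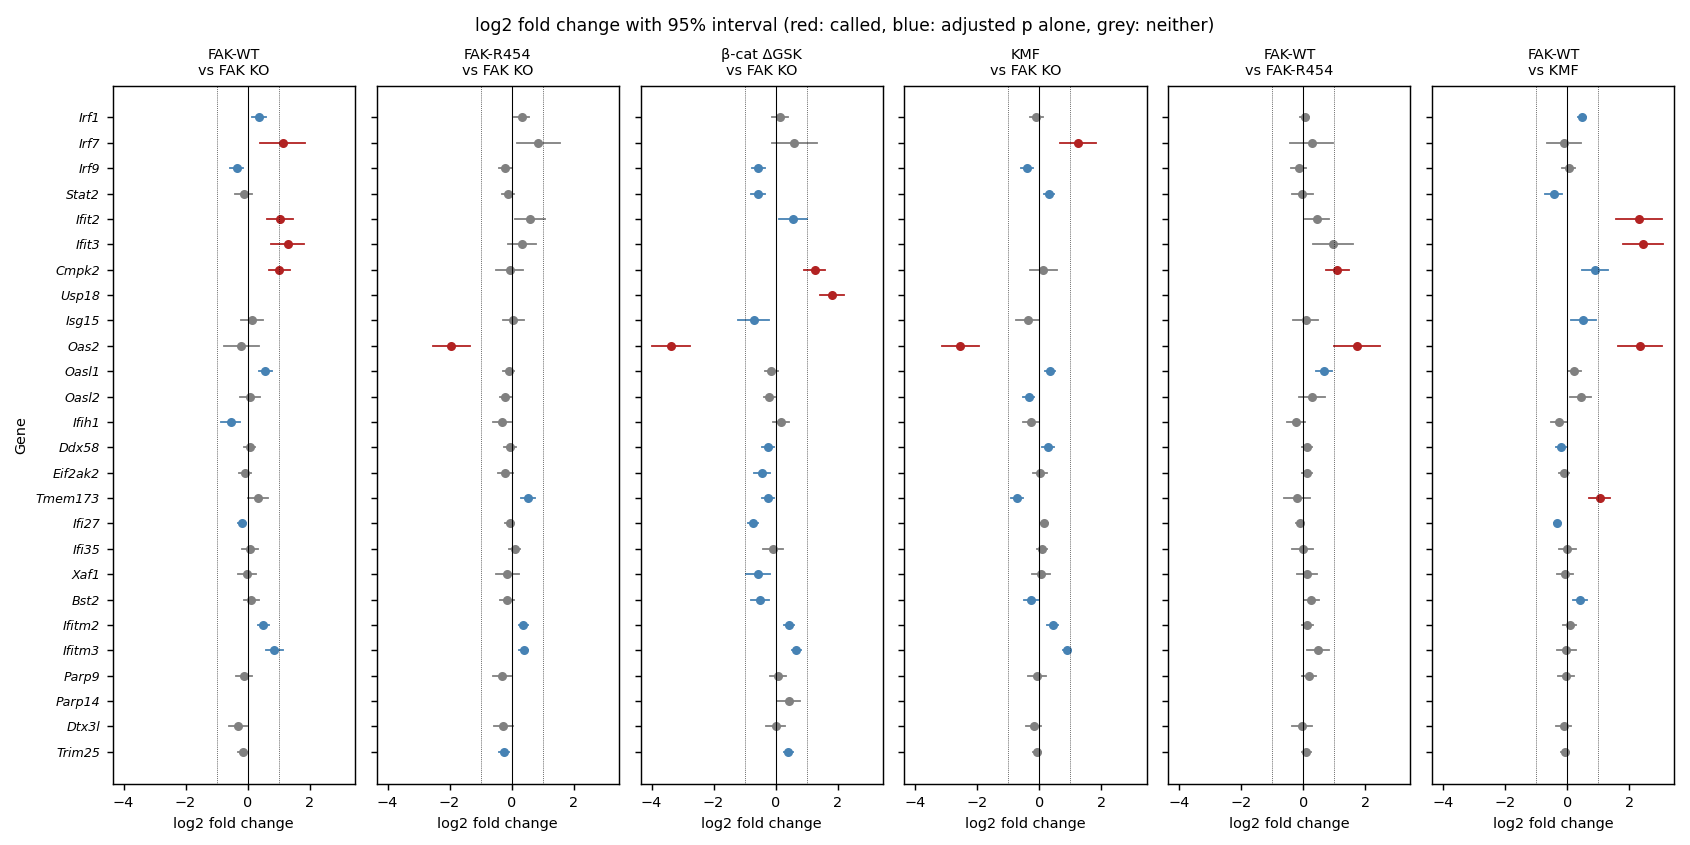
Each panel is 1 comparison and each point the log2 fold change of a tested member from limma on log2(FPKM + 0.1), with its 95% interval; red points pass the adjusted p and the 2-fold threshold (dotted lines), blue points the adjusted p alone, and grey points neither. Most members lie between the dotted lines, and Oas2 is the member farthest from 0 in the comparisons of FAK-R454, β-catenin ΔGSK and KMF with FAK KO.

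The transcription factors of the response were measured in every line. Irf1 (ENSMUSG00000018899, chromosome 11, 53770014 to 53778374) encodes a factor that is induced by interferon and activates interferon targets. It measured 15.02, 14.3 and 14.9 FPKM in KMF, 15.2, 18.2 and 14.3 in FAK KO, 21.0, 20.9 and 19.4 in FAK-WT, 20.5 and 19.3 in FAK-R454, and 15.5, 18.3 and 19.4 in β-catenin ΔGSK cells. The 5 samples of FAK-WT and FAK-R454 lay above the 6 of KMF and FAK KO, and β-catenin ΔGSK overlapped both sets. In FAK-WT against FAK KO the log2 fold change was 0.37 (standard error 0.09, adjusted p = 0.0166, limma), which passed the test in 3 of the 6 fits that left out a sample and not in the fits without FAK-WT sample 2, FAK KO sample 1 or FAK KO sample 3. In FAK-R454 it was 0.33 (adjusted p = 0.0617).

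Irf7 (chromosome 7, 141262706 to 141266481) encodes the factor that amplifies type I interferon production. Its levels were 2.12, 2.32 and 2.55 FPKM in KMF, 1.14, 1.23 and 0.559 in FAK KO, 1.44, 2.85 and 2.41 in FAK-WT, 1.63 and 1.93 in FAK-R454, and 1.15, 2.18 and 1.25 in β-catenin ΔGSK cells, from 35 to 201 fragments per sample. All 3 FAK KO samples were below every sample of KMF, FAK-WT and FAK-R454, but the FAK-WT samples were spread over nearly a 2-fold range. Irf7 lies on the same stretch of chromosome 7 as Ifitm2 (from 140954839) and Ifitm3 (from 141009586), described below. These were the 3 expressed members, of 26, with FAK KO as the lowest line, beside 16.2% of all expressed genes. Whether the 3 share a cause was not tested. Irf7 was 1.23 higher in KMF than in FAK KO on the log2 scale (standard error 0.26, adjusted p = 0.00400, limma) and 1.13 higher in FAK-WT (standard error 0.32, adjusted p = 0.0242). The FAK-WT call was lost without FAK KO sample 3 (adjusted p = 0.0672), without FAK-WT sample 2 (0.0790) or without FAK-WT sample 3 (0.0550). Irf7 overlaps Phrf1 on the other strand, whose mean was 18.1 FPKM, and whether fragments were counted by strand is not stated.

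Irf9 and Stat2 encode the DNA-binding and one of the STAT subunits of ISGF3. Irf9 measured 3.91, 3.64 and 3.79 FPKM in KMF, 5.28, 4.71 and 5.07 in FAK KO, 4.30, 3.76 and 3.68 in FAK-WT, 4.37 and 4.33 in FAK-R454, and 3.52, 3.29 and 3.34 in β-catenin ΔGSK cells. FAK KO was the highest line without overlap, and β-catenin ΔGSK the lowest without overlap. The log2 fold change against FAK KO was -0.55 in β-catenin ΔGSK (standard error 0.09, adjusted p = 0.000935, limma), -0.40 in KMF (adjusted p = 0.00451) and -0.35 in FAK-WT (adjusted p = 0.0201), the last lost without FAK-WT sample 2, FAK KO sample 1 or FAK KO sample 3. Irf9 shares an annotated stretch with Rnf31 on the same strand, so reads there cannot be assigned to 1 of them.

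Stat2 measured 7.32, 7.73 and 7.67 FPKM in KMF, 6.17, 5.77 and 6.27 in FAK KO, 5.48, 6.51 and 4.75 in FAK-WT, 5.53 and 5.77 in FAK-R454, and 3.69, 4.07 and 4.54 in β-catenin ΔGSK cells. KMF was highest and β-catenin ΔGSK lowest, both without overlap with the other lines. Against FAK KO, Stat2 was 0.32 higher in KMF on the log2 scale (standard error 0.07, adjusted p = 0.00689, limma) and -0.56 in β-catenin ΔGSK (standard error 0.10, adjusted p = 0.00148). FAK-WT and FAK-R454 did not pass the test against FAK KO, with 95% intervals of -0.39 to 0.13 and -0.30 to 0.09.

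The IFIT proteins act against viral RNA, and IFIT1 binds RNA that lacks the host cap methylation and blocks its translation. Ifit2 (ENSMUSG00000045932, chromosome 19, 34550694 to 34576419) measured 0.415, 0.122 and 0.230 FPKM in KMF, 0.844, 0.603 and 0.711 in FAK KO, 1.35, 1.75 and 1.65 in FAK-WT, 1.10 and 1.16 in FAK-R454, and 1.32, 0.939 and 1.08 in β-catenin ΔGSK cells. The lines formed a ladder in which KMF lay below FAK KO, FAK KO below FAK-R454 and β-catenin ΔGSK, and these below FAK-WT, with overlap only between FAK-R454 and β-catenin ΔGSK. FAK-WT was 1.04 above FAK KO on the log2 scale (standard error 0.19, adjusted p = 0.00389, limma) and 2.32 above KMF (standard error 0.31, adjusted p = 0.00123). Without FAK-WT sample 2 the value against FAK KO was 0.97 (adjusted p = 0.0224) and without FAK KO sample 2 it was 0.94, both just short of 2-fold. β-catenin ΔGSK was 0.56 above FAK KO (adjusted p = 0.0345), short of 2-fold, and the adjusted p was over 0.05 without FAK KO sample 2, FAK KO sample 3, β-catenin ΔGSK sample 1 or β-catenin ΔGSK sample 3.

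Ifit3 (ENSMUSG00000074896, chromosome 19, 34583531 to 34588731), the neighbouring gene whose promoter is printed above, measured 0.414, 0.246 and 0.438 FPKM in KMF, 0.818, 0.901 and 1.04 in FAK KO, 2.13, 3.48 and 1.82 in FAK-WT, 1.16 and 1.21 in FAK-R454, and 0.747, 0.745 and 0.915 in β-catenin ΔGSK cells. FAK-WT was the highest line and KMF the lowest, both without overlap, and FAK-WT sample 2 was the highest of all. FAK-WT was 1.29 above FAK KO on the log2 scale (standard error 0.23, adjusted p = 0.00395, limma) and 2.44 above KMF (standard error 0.28, adjusted p = 0.000599). Without FAK-WT sample 2 these were 1.03 and 2.18, and both remained called. Against FAK-R454, Ifit3 was 0.95 higher in FAK-WT with a 95% interval of 0.30 to 1.61 and did not pass the test (adjusted p = 0.0878).

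Ifit3 has a close copy, Ifit3b, which matches it at 97.8% over 1700 bases, so fragments could be divided between them. The copy, listed in the table under its gene ID ENSMUSG00000062488 and an older name, measured 0.166 ± 0.0992 FPKM in KMF (SD, n = 3), 0.630 ± 0.119 in FAK KO (SD, n = 3), 1.09 ± 0.185 in FAK-WT (SD, n = 3), 0.683 ± 0.151 in FAK-R454 (SD, n = 2) and 0.314 ± 0.0894 in β-catenin ΔGSK cells (SD, n = 3). It thus had its highest level in FAK-WT and its lowest in KMF, as Ifit3 did. Ifit1 was at or under 1 FPKM in every line: FAK-WT sample 2 measured 1.54 FPKM, samples 1 and 3 of that line 0.442 and 0.264, and the other 11 samples 0.0148 to 0.357.

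Cmpk2 encodes a mitochondrial nucleotide kinase that lies beside Rsad2 and is induced with it. It measured 1.99, 1.51 and 1.22 FPKM in KMF, 1.19, 1.56 and 1.49 in FAK KO, 2.68, 2.94 and 3.32 in FAK-WT, 1.18 and 1.52 in FAK-R454, and 3.73, 3.90 and 2.96 in β-catenin ΔGSK cells. FAK-WT and β-catenin ΔGSK formed a high set and the other 3 lines a low set, with no overlap between the sets and overlap within each. Against FAK KO, Cmpk2 was 1.26 higher in β-catenin ΔGSK on the log2 scale (standard error 0.15, adjusted p = 0.000147, limma) and 1.03 higher in FAK-WT (standard error 0.14, adjusted p = 0.00129), with the second at 0.92 without FAK KO sample 1 and 0.95 without FAK-WT sample 3. FAK-R454 gave -0.06, with a 95% interval of -0.49 to 0.37. Against FAK-R454, FAK-WT was 1.09 higher (standard error 0.15, adjusted p = 0.0168), and the adjusted p was 0.0756 without FAK-WT sample 2. Over all fits that left out a sample the difference stayed between 0.92 and 1.26. Rsad2, which encodes the antiviral enzyme viperin, measured 0.454 FPKM in FAK-WT sample 2 and 0.00855 to 0.154 in the other 13 samples.

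**Figure D3:**
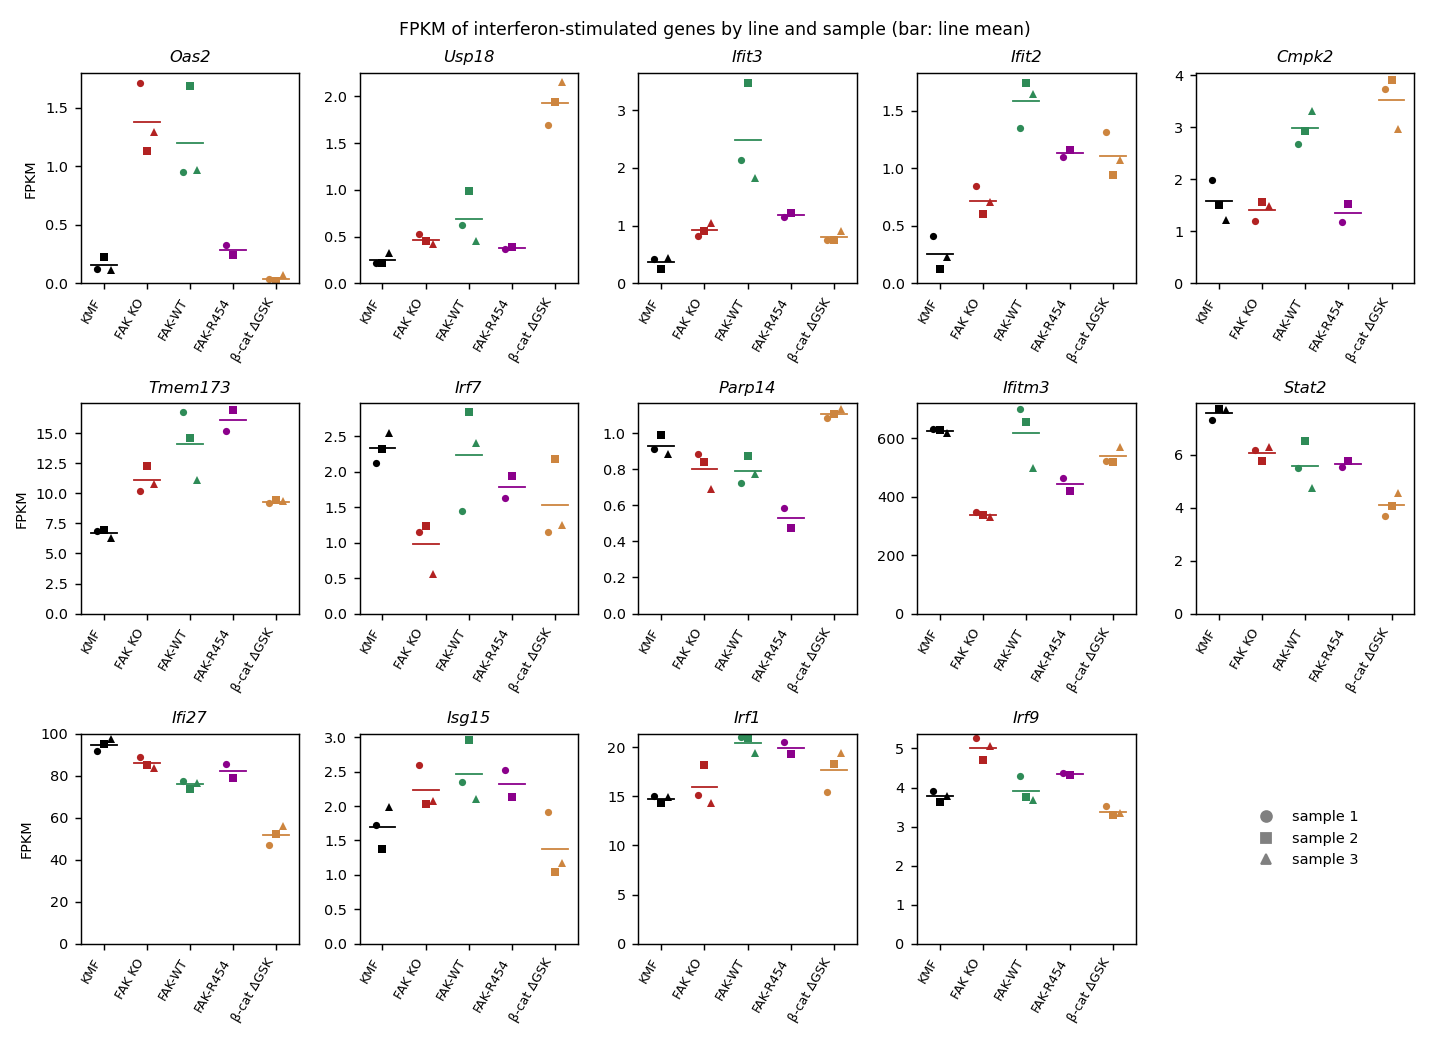
FPKM of the 12 members with the largest difference between lines and of the transcription factors Irf1 and Irf9, with 1 point per sample, the marker shape giving the sample number and the bar the line mean; every axis starts at 0. Oas2 is high in FAK KO and FAK-WT, Usp18 in β-catenin ΔGSK, Cmpk2 in FAK-WT and β-catenin ΔGSK, and Ifitm3 is lowest in FAK KO.

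Of the 2′-5′ oligoadenylate synthetases, which make the second messenger that activates RNase L, Oas2 (ENSMUSG00000032690, chromosome 5, 120730333 to 120749853) had the largest difference between lines of any expressed member. It measured 0.122, 0.226 and 0.114 FPKM in KMF, 1.71, 1.13 and 1.29 in FAK KO, 0.948, 1.68 and 0.973 in FAK-WT, 0.327 and 0.239 in FAK-R454, and 0.0356, 0.0199 and 0.0686 in β-catenin ΔGSK cells. These values rest on 117 to 204 fragments per sample in FAK KO and on 4, 2 and 8 fragments in β-catenin ΔGSK. FAK KO and FAK-WT overlapped, and both lay above the 8 samples of the other 3 lines. Against FAK KO, Oas2 was -3.38 in β-catenin ΔGSK on the log2 scale (standard error 0.27, adjusted p = 1.37e-05, limma), -2.55 in KMF (standard error 0.27, adjusted p = 0.000105) and -1.94 in FAK-R454 (standard error 0.26, adjusted p = 0.00197). Each of these stayed called in every fit that left out a sample and could test it.

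In FAK-WT the log2 fold change of Oas2 against FAK KO was -0.21, with a 95% interval of -0.77 to 0.35. FAK-WT exceeded FAK-R454 by 1.73 (standard error 0.31, adjusted p = 0.0296, limma) and KMF by 2.34 (standard error 0.30, adjusted p = 0.00102). The adjusted p of the difference from FAK-R454 was 0.0609 without FAK-WT sample 1, and the difference stayed between 1.56 and 1.89 in the 4 fits without a sample that could test it. Without FAK-WT sample 2 the mean in FAK-WT fell under 1 FPKM, so that neither of the last 2 comparisons could test the gene. Oas3, its neighbour, was under 1 FPKM in every sample: it ranged from 0.102 to 0.109 FPKM in KMF, 0.357 to 0.837 in FAK KO, 0.519 to 0.876 in FAK-WT, 0.221 to 0.244 in FAK-R454 and 0.108 to 0.167 in β-catenin ΔGSK cells. The high and low lines were those of Oas2. Oas1a did not share this order: it ranged from 0.165 to 0.361 FPKM in KMF, 0.346 to 0.436 in FAK KO, 0.186 to 0.534 in FAK-WT, and 0.0187 to 0.167 over FAK-R454 and β-catenin ΔGSK cells, so that KMF overlapped both FAK KO and FAK-WT.

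The 2 OAS-like genes, which lie apart from that cluster on chromosome 5, had higher levels and another order. Oasl1, which represses translation of Irf7 mRNA, measured 18.8, 17.0 and 17.8 FPKM in KMF, 13.8, 14.95 and 13.2 in FAK KO, 18.3, 21.8 and 22.5 in FAK-WT, 13.5 and 12.7 in FAK-R454, and 11.5, 14.2 and 12.6 in β-catenin ΔGSK cells. KMF and FAK-WT overlapped in their ranges and were both above the other 3 lines. On the log2 scale FAK KO was exceeded by FAK-WT by 0.57 (standard error 0.09, adjusted p = 0.00244, limma) and by KMF by 0.35 (adjusted p = 0.00421), and FAK-WT exceeded FAK-R454 by 0.66 (adjusted p = 0.0197, lost without FAK-WT sample 2, with 0.61 to 0.76 over the fits without a sample). Oasl2 ranged from 5.02 to 8.49 FPKM over all samples and was 0.35 lower in KMF than in FAK KO (log2 fold change -0.35, adjusted p = 0.00481).

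Isg15 encodes the ubiquitin-like protein ISG15, and Usp18 the protease that removes it and also restrains IFNAR signaling. Usp18 (ENSMUSG00000030107, chromosome 6, 121245906 to 121270916) measured 0.214, 0.223 and 0.320 FPKM in KMF, 0.525, 0.455 and 0.424 in FAK KO, 0.625, 0.989 and 0.450 in FAK-WT, 0.366 and 0.392 in FAK-R454, and 1.69, 1.94 and 2.15 in β-catenin ΔGSK cells. The 3 β-catenin ΔGSK samples lay above all 11 others. The log2 fold change against FAK KO was 1.83 (standard error 0.17, adjusted p = 3.10e-05, limma), and it was called in every fit that left out a sample. In the other comparisons Usp18 was at or under 1 FPKM in both lines and was not tested.

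Isg15 measured 1.73, 1.37 and 1.99 FPKM in KMF, 2.59, 2.03 and 2.08 in FAK KO, 2.35, 2.96 and 2.11 in FAK-WT, 2.52 and 2.13 in FAK-R454, and 1.91, 1.04 and 1.17 in β-catenin ΔGSK cells. β-catenin ΔGSK differed from FAK KO by -0.70 on the log2 scale (standard error 0.22, adjusted p = 0.0225, limma), short of 2-fold, and the adjusted p was over 0.05 without FAK KO sample 1, β-catenin ΔGSK sample 2 or β-catenin ΔGSK sample 3. It was 0.52 higher in FAK-WT than in KMF (adjusted p = 0.0464), which was lost without FAK-WT sample 1 or 2 or KMF sample 1 or 2. Thus in β-catenin ΔGSK cells the 2 genes of this pathway stood on opposite sides of FAK KO.

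Tmem173 encodes STING, the adaptor that passes the signal of cytosolic DNA to TBK1 and IRF3. It measured 6.83, 6.97 and 6.31 FPKM in KMF, 10.2, 12.3 and 10.8 in FAK KO, 16.8, 14.6 and 11.1 in FAK-WT, 15.2 and 17.0 in FAK-R454, and 9.17, 9.44 and 9.33 in β-catenin ΔGSK cells. KMF was the lowest line and β-catenin ΔGSK the next, and neither overlapped another line. FAK-WT overlapped both FAK KO and FAK-R454. Tmem173 was -0.71 in KMF against FAK KO on the log2 scale (standard error 0.09, adjusted p = 0.000247, limma) and 0.53 in FAK-R454 (standard error 0.10, adjusted p = 0.00780, with 0.46 to 0.61 over the fits without a sample). Between KMF and FAK-WT the rise was 1.05 (standard error 0.14, adjusted p = 0.00124), and 0.91 without FAK-WT sample 1. The value of -0.25 in β-catenin ΔGSK (adjusted p = 0.0342) became 0.14 when each chromosome was centred, and passed the test in 1 of the 6 fits that left out a sample, the one without FAK KO sample 1.

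Among the RNA sensors, Ddx58, which encodes RIG-I, ranged from 14.7 to 22.4 FPKM, and its 3 differences past the adjusted p lay between -0.24 and 0.27 on the log2 scale, each of which was lost in 4 or 5 of the 6 fits that left out a sample. Ifih1, which encodes MDA5, ranged from 1.58 to 3.04 FPKM and was -0.55 in FAK-WT against FAK KO (standard error 0.13, adjusted p = 0.0120, limma; 0.0523 without FAK KO sample 3). Eif2ak2, which encodes the RNA-activated kinase PKR, ranged from 5.08 to 8.29 FPKM and was -0.43 in β-catenin ΔGSK against FAK KO (standard error 0.11, adjusted p = 0.00846). Dhx58, which encodes LGP2, ranged from 0.146 to 1.08 FPKM, with its 3 lowest values in β-catenin ΔGSK cells.

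The membrane proteins IFITM2 and IFITM3, which block the fusion of viruses with endosomes, had by far the highest mRNA levels of the members, and FAK KO was the lowest line for both. Ifitm3 (ENSMUSG00000025492, chromosome 7, 141009586 to 141010770) measured 632, 628 and 619 FPKM in KMF, 346, 336 and 332 in FAK KO, 701, 657 and 498 in FAK-WT, 464 and 421 in FAK-R454, and 522, 520 and 571 in β-catenin ΔGSK cells. All 3 FAK KO samples lay below the 11 others. The log2 fold change against FAK KO was 0.89 in KMF (standard error 0.06, adjusted p = 1.02e-05, limma), 0.86 in FAK-WT (standard error 0.12, adjusted p = 0.00129), 0.67 in β-catenin ΔGSK (standard error 0.06, adjusted p = 3.30e-05) and 0.39 in FAK-R454 (standard error 0.07, adjusted p = 0.00643, with 0.32 to 0.46 over the fits without a sample). These were short of the 2-fold threshold. FAK-WT and FAK-R454 differed by 0.47, with a 95% interval of 0.10 to 0.84 (adjusted p = 0.117).

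Ifitm2, its neighbour, ranged from 455 to 498 FPKM in FAK KO and from 584 to 705 in the other 11 samples. Its log2 fold change against FAK KO was 0.50 in FAK-WT, 0.43 in β-catenin ΔGSK, 0.42 in KMF and 0.38 in FAK-R454, with adjusted p between 0.000935 and 0.00678 (limma). That of FAK-R454 stayed between 0.35 and 0.42 with a sample left out. Ifitm2 and Ifitm3 both passed the adjusted p as higher in all 4 comparisons with FAK KO. Those comparisons share the same FAK KO samples, so they are not 4 separate results. Bst2, which encodes the virion tether tetherin, ranged from 26.1 to 53.3 FPKM and moved otherwise: it was -0.50 in β-catenin ΔGSK against FAK KO (standard error 0.13, adjusted p = 0.00934) and 0.40 higher in FAK-WT than in KMF (adjusted p = 0.0139, 0.0528 without FAK-WT sample 2).

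Among the remaining members, Ifi27, which encodes a small mitochondrial and nuclear membrane protein, measured 91.6, 95.4 and 97.5 FPKM in KMF, 88.8, 85.1 and 83.8 in FAK KO, 77.5, 73.7 and 76.6 in FAK-WT, 85.8 and 78.9 in FAK-R454, and 47.1, 52.3 and 56.1 in β-catenin ΔGSK cells. β-catenin ΔGSK lay far below the other lines, with a log2 fold change of -0.73 against FAK KO (standard error 0.08, adjusted p = 6.01e-05, limma), and KMF lay above them all. Xaf1, which encodes an antagonist of the apoptosis inhibitor XIAP, was -0.56 in β-catenin ΔGSK against FAK KO (adjusted p = 0.0194, lost without FAK KO sample 1, FAK KO sample 3 or β-catenin ΔGSK sample 2), and Ifi35 ranged from 7.01 to 10.8 FPKM with no difference past the test.

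Trim25, which encodes the ubiquitin ligase that acts on RIG-I, and Parp14, an ADP-ribosyltransferase, were highest in β-catenin ΔGSK cells. Trim25 ranged from 26.5 to 28.9 FPKM there and from 17.6 to 21.6 in the other 11 samples, with a log2 fold change of 0.41 against FAK KO (standard error 0.07, adjusted p = 0.000766, limma). Parp14 measured 0.909, 0.990 and 0.883 FPKM in KMF, 0.882, 0.838 and 0.689 in FAK KO, 0.723, 0.874 and 0.773 in FAK-WT, 0.583 and 0.472 in FAK-R454, and 1.08, 1.10 and 1.13 in β-catenin ΔGSK cells. The 2 FAK-R454 samples were the lowest and the 3 β-catenin ΔGSK samples the highest. The 1 test it entered, β-catenin ΔGSK against FAK KO, gave 0.42 with adjusted p = 0.0505. Parp9 and Dtx3l, which encode partners in 1 complex and overlap at their start, ranged from 2.83 to 4.28 and from 2.27 to 3.69 FPKM with no difference past the test.

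The 10 members at or under 1 FPKM in every line (Ifit1, Rsad2, Oas1a, Oas3, Mx1, Mx2, Dhx58, Zbp1, Ifi44 and Rtp4) entered no test. In each, FAK-WT sample 2 was the highest of its line. Mx1, a gene of the dynamin-like GTPase family, had its 3 highest values in β-catenin ΔGSK cells, at 0.239, 0.314 and 0.211 FPKM from 21 to 27 fragments, against 0.0251 to 0.176 FPKM elsewhere. Zbp1, a sensor of left-handed nucleic acid, and Ifi44 had only 0 to 11 and 0 to 14 fragments per sample. Rtp4 had its 2 lowest values in β-catenin ΔGSK cells, at 0.179 and 0.200 FPKM, while the third sample of that line measured 0.648.

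**Figure D4:**
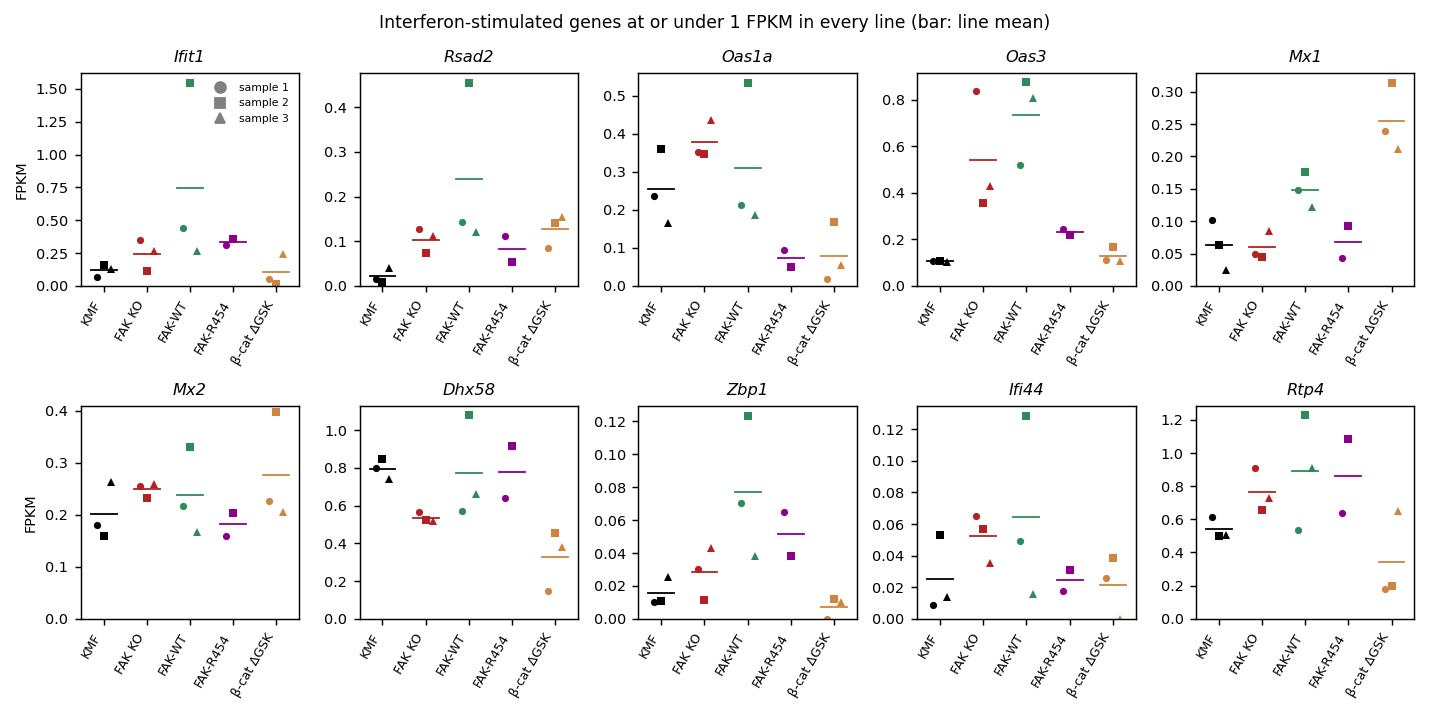
FPKM of the 10 members at or under 1 FPKM on average in every line, with 1 point per sample and the line mean as a bar; each axis starts at 0 and has its own scale. FAK-WT sample 2 (green square) is the highest FAK-WT sample in all 10 panels, and the highest of all 14 samples in each except Mx1 and Mx2.

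Almost no interferon mRNA was present. Of 20 interferon ligand genes of types I, II and III, 13 were at 0 in every sample, including Ifnb1, and the highest value of any was 0.190 FPKM, for Ifne. The receptors were present in every line: line means were 17.5 to 20.3 FPKM for Ifnar1, 10.1 to 12.5 for Ifnar2, 8.95 to 20.2 for Ifngr1, 25.1 to 31.7 for Ifngr2, 4.66 to 5.87 for Il10rb and 2.83 to 5.19 for Ifnlr1. Of the 6 receptors 0 were called at 2-fold in any comparison, beside 0.696% to 6.99% of all genes per comparison and direction. At any fold, by the adjusted p, 1 was higher and 2 were lower in KMF against FAK KO (23.1% and 28.7% of all genes), 1 and 1 in FAK-R454 (9.78% and 9.89%), 0 and 1 in FAK-WT (15.6% and 25.2%) and 0 and 1 in β-catenin ΔGSK (23.7% and 34.4%). FAK-WT had 0 higher and 1 lower against FAK-R454 (3.38% and 4.44%) and 1 and 1 against KMF (18.2% and 23.5%). The largest fall was that of Ifngr1, the ligand-binding chain for type II interferon, which measured 9.44, 9.47 and 7.93 FPKM in β-catenin ΔGSK cells and 15.2 to 17.3 in FAK KO (log2 fold change -0.87, standard error 0.09, adjusted p = 7.59e-05, limma).

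Among the transducers described here, Jak1 was the most abundant, with line means from 112 to 152 FPKM, and Jak2, Tyk2 and Stat3 had line means of 12.4 to 15.4, 12.4 to 15.3 and 51.1 to 64.4 FPKM. Of these 4, 0 were called at 2-fold in any comparison. At any fold, by the adjusted p, KMF had 1 higher and 2 lower than FAK KO, β-catenin ΔGSK 1 and 1, FAK-WT 0 and 1 and FAK-R454 0 and 0, while FAK-WT had 2 and 2 against KMF and 0 and 0 against FAK-R454. The shares of all genes by this rule are those given for the receptors. Against KMF, the fold change of Stat2 in FAK-WT was -0.45 on the log2 scale (adjusted p = 0.0165, limma, 0.0540 without KMF sample 2).

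Among 9 negative regulators, Socs1, which encodes an inhibitor of JAK kinases and is itself interferon-induced, was called higher in β-catenin ΔGSK cells: 3.23, 3.10 and 2.17 FPKM against 0.762, 0.503 and 0.644 in FAK KO (log2 fold change 1.99, standard error 0.20, adjusted p = 5.46e-05). Usp18, described above, is a negative regulator as well and was highest in the same line. Ptpn6, which encodes the phosphatase SHP-1, was called higher in FAK-WT at 1.48 (adjusted p = 0.00115) and in FAK-R454 at 1.21 (adjusted p = 0.0131), from a mean of 0.688 FPKM in FAK KO to 2.07 and 1.70. Socs1 and Ptpn6 were both under 1 FPKM in FAK KO, so they entered these tests only because the other line was high. Each of these calls was the 1 made among the 9 regulators tested, or 8 in β-catenin ΔGSK, beside 2.91% of all genes called higher for FAK-WT, 1.93% for FAK-R454 and 5.13% for β-catenin ΔGSK, and the other 3 comparisons had 0. At any fold 3 regulators passed the adjusted p as higher and 2 as lower in FAK-WT against FAK KO, FAK-R454 had 1 and 0, β-catenin ΔGSK 3 and 3, and KMF 2 and 1. FAK-WT had 0 and 0 against FAK-R454 and 3 and 1 against KMF, and the shares of all genes by this rule are those given for the receptors.

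Of 18 genes that lead from nucleic acid sensing to interferon, 12 or 13 were tested per comparison. The calls among them were those of Irf5 and Mb21d1 given next, beside 0.696% to 6.99% of all genes. At any fold 2 were higher and 2 lower in FAK-WT against FAK KO by the adjusted p, FAK-R454 had 1 and 0, β-catenin ΔGSK 4 and 1, and KMF 4 and 1, while FAK-WT had 0 and 1 against FAK-R454 and 1 and 6 against KMF. By this rule the shares of all genes are those given for the receptors, with 18.2% and 23.5% in FAK-WT against KMF. Of 7 genes of nucleic acid clearance 6 were tested with 0 called in any of them; by adjusted p alone 1 of the 6 was higher in KMF against FAK KO (23.1% of all genes), and in FAK-WT against KMF 1 was higher and 2 were lower (18.2% and 23.5% of all genes). Irf5, a factor that activates interferon and cytokine genes, measured 0.608, 0.702 and 0.462 FPKM in FAK KO, 1.26, 1.17 and 0.974 in KMF, 1.44, 1.45 and 0.938 in FAK-WT, 4.34 and 4.23 in FAK-R454, and 5.90, 5.92 and 7.26 in β-catenin ΔGSK cells. It was called higher against FAK KO in β-catenin ΔGSK (log2 fold change 3.23, adjusted p = 9.12e-07, limma) and in FAK-R454 (2.68, adjusted p = 0.000135), and lower in FAK-WT than in FAK-R454 (-1.70, adjusted p = 0.0102). Irf5 was under 1 FPKM in FAK KO, so it was tested against that line only because the other line was high. Mb21d1, which encodes the DNA sensor cGAS that signals through STING, measured 2.51, 2.35 and 2.49 FPKM in KMF and 0.498 to 1.01 in the other 11 samples, and was called higher in KMF than in FAK KO (1.51, adjusted p = 3.58e-05) and lower in FAK-WT than in KMF (-1.70, adjusted p = 0.000326). It was tested only in the comparisons with KMF, where it was high. KMF was thus the highest line for cGAS and the lowest for STING. Mavs, the adaptor of RIG-I and MDA5, had line means of 29.1 to 35.8 FPKM in 4 lines and 60.6 in β-catenin ΔGSK (log2 fold change 0.76 against FAK KO, adjusted p = 0.000235), and Tbk1 and Irf3 had line means of 12.5 to 15.9 and 21.3 to 29.0 FPKM.

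**Figure D5:**
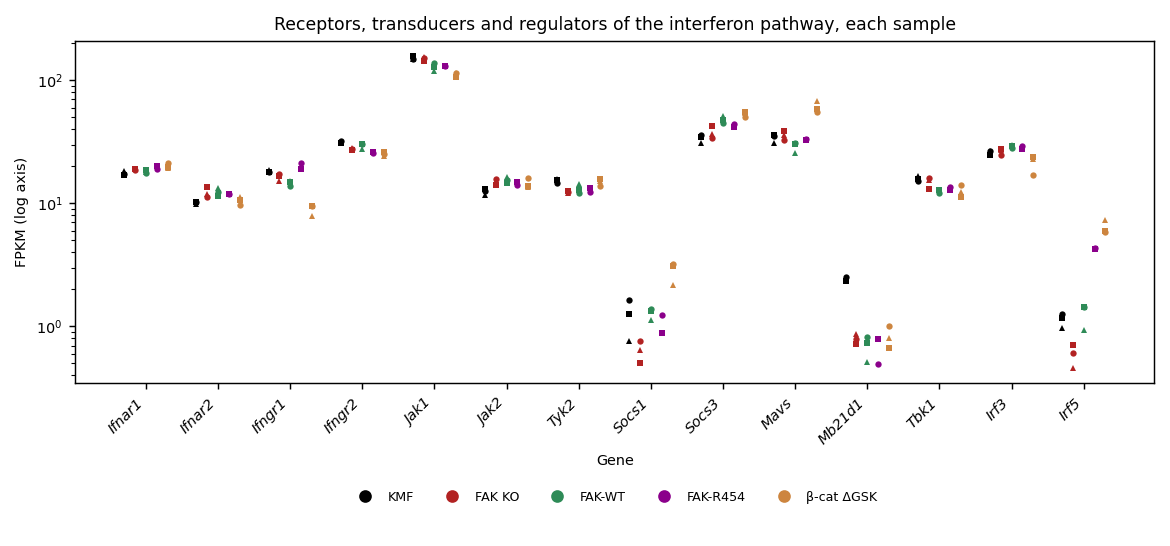
FPKM on a log axis of receptors, transducers and regulators of the pathway in each of the 14 samples, colored by line, with the marker shape giving the sample number. Mb21d1 is highest in KMF (black), Ifngr1 is lowest and Socs1, Mavs and Irf5 are highest in β-catenin ΔGSK (orange), and Irf5 is also high in FAK-R454 (purple).

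A wider list of 66 further interferon-stimulated genes, of which 62 were in the table by symbol and 38 to 41 tested per comparison, gave other counts. By the 2-fold call FAK-WT had 1 higher and 1 lower than FAK KO, FAK-R454 0 and 3, β-catenin ΔGSK 0 and 7, and KMF 3 and 6. Among all genes the shares called higher and lower were 2.91% and 1.71%, 1.93% and 0.812%, 5.13% and 6.99%, and 3.97% and 4.04% in the same order. FAK-WT had 1 higher and 0 lower against FAK-R454 (0.696% and 0.747% of all genes), and 4 and 2 against KMF (3.82% and 2.11%). At any fold the adjusted p was passed by 7 higher and 7 lower in FAK-WT, 4 and 9 in FAK-R454, 6 and 15 with β-catenin ΔGSK and 10 and 17 in KMF against FAK KO, and FAK-WT had 4 and 0 against FAK-R454 and 13 and 9 against KMF. By that rule 15.6% of all genes were higher and 25.2% lower in FAK-WT, and 9.78% and 9.89% in FAK-R454. With β-catenin ΔGSK the shares were 23.7% and 34.4%, and in KMF 23.1% and 28.7%. Those of FAK-WT were 3.38% and 4.44% against FAK-R454, and 18.2% and 23.5% against KMF. The guanylate-binding protein gene Gbp4 had its high and low lines in common with Oas2, with means of 2.47 FPKM for FAK KO and 2.44 for FAK-WT against 1.23 for FAK-R454, 0.651 for β-catenin ΔGSK and 0.570 for KMF. It was called lower against FAK KO in KMF (-1.96, adjusted p = 0.000115) and β-catenin ΔGSK (-1.79, adjusted p = 0.000114). Gbp4 had a mean under 1 FPKM in KMF and β-catenin ΔGSK, so it was tested against them only because the other line was high. Gbp9, which overlaps Gbp4 on the same strand so that shared reads cannot be assigned, had line means of 9.52 FPKM in FAK KO and 7.71 in FAK-WT against 3.41 to 4.31 in the other 3 lines. In FAK-R454 against FAK KO the calls were Slfn2, Gbp9 (-1.12, adjusted p = 0.00130, limma) and Gbp8 (-1.07, adjusted p = 0.0275), and Gbp8 overlaps the same stretch. FAK-WT was called higher than KMF for Gbp4 (1.92, adjusted p = 0.000893) and for Apol9a, an apolipoprotein L gene (1.87, adjusted p = 8.77e-05).

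Slfn2, a Schlafen gene of immune cell quiescence, was called lower than in FAK KO in FAK-WT (log2 fold change -2.03, adjusted p = 0.000415, limma), FAK-R454 (-1.84, adjusted p = 0.000125) and KMF (-1.93, adjusted p = 3.58e-06), with means of 5.52 FPKM in FAK KO, 6.77 in β-catenin ΔGSK and 1.32 to 1.47 in the other 3 lines. Ifi27l2a, a relative of Ifi27, was called higher than in FAK KO in FAK-WT (1.39, adjusted p = 0.00309) and KMF (1.57, adjusted p = 0.000487), and FAK-WT also exceeded FAK-R454 (1.23, adjusted p = 0.0184). Its neighbour Ifi27l2b measured 1.73 to 1.87 FPKM in KMF and 0.132 to 0.545 in the other 11 samples. It had the largest call of the list in KMF against FAK KO (2.56, adjusted p = 5.77e-05) and in FAK-WT against KMF (-1.95, adjusted p = 0.000845). Ifi27l2b entered these tests only because KMF was high, and it was tested in no other comparison. In β-catenin ΔGSK cells the largest fall of the list was that of Samd9l, an antiviral and growth-restraining gene (-2.48, adjusted p = 3.93e-05), from 2.70 ± 0.450 FPKM in FAK KO to 0.413 ± 0.157 (SD, n = 3 each), followed by Gbp4 and by Sp100, which encodes a nuclear body protein (-1.78, adjusted p = 1.08e-05). Samd9l and Gbp4 were tested there only because FAK KO was high.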

How the data were processed

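Poly(A) RNA was sequenced as paired ends in 14 libraries of 5 lines. The authors deposited 1 table of FPKM values per gene on mm10; the study's methods name TopHat2, while the submitters' processing notes name CASAVA 1.8, STAR 2.5 and DESeq2, and strandedness is not given in the sources used here. FPKM times gene length gave whole fragments, within 0.05, for at least 99.99% of values and 25390558 to 35289859 fragments per sample; these served only for depth and for 1 alternative, since their number limits the precision of low genes. Here log2(FPKM + 0.1) was fitted with limma 3.58.1 (R 4.3.3, trended eBayes) to the samples of 2 lines at a time, over genes with a mean above 1 FPKM in either; adjusted p-values are Benjamini-Hochberg over all of these, and the fit was tested on simulated data. All 36 members are described; shown in every sample are the 12 with the largest log2 range between line means among those above 1 FPKM, with the 4 transcription factors and others by role. Pathway genes are named by level or, if called, up to 3 per list and comparison by size; the rest are counted. The members and lists were chosen with earlier results of these data known. Promoter windows are from RefSeq, transcript likeness from blastn 2.17.0+ on GENCODE vM21, and other work used Python 3.11.15 with pandas 2.3.3. Alternatives were other pseudocounts, filters, scalings, fold thresholds and fits, the replicate number as a block, and each sample left out.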

Additional observations from a re-analysis of the deposited data

How the results depend on the processing

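Of 57 member differences past the adjusted p, 44 stayed past it under every processing alternative and 33 also with each sample left out; 29 of 549 alternative values and 68 of 332 left-out-sample values fell short, and 1 reversed. That was Tmem173 in β-catenin ΔGSK against FAK KO, 0.14 with each chromosome centred on its own median (-0.25 as reported), and the cause was not tested. The counts of 33 and 68 include fits that keep 1 FAK-R454 sample, which say nothing of stability. Among the fits that left out a sample, Ifitm2, Ifitm3 and Tmem173 in FAK-R454 against FAK KO fell short only in such fits. Counts called at 2-fold depended most on how low values were treated. With a pseudocount of 1, which shrinks the folds of low genes, members called higher were 0 in FAK-WT, 0 in β-catenin ΔGSK and 0 in KMF against FAK KO, 0 in FAK-WT against FAK-R454 and 2 in FAK-WT against KMF, and 0 were called lower in FAK-R454. All genes called higher fell as well, from 344 to 174, 611 to 420, 472 to 274, 82 to 26 and 452 to 269 in that order, and those called lower in FAK-R454 from 96 to 37. With only genes above 5 FPKM, which leaves fewer members tested, 0 were called higher or lower except 1 higher in FAK-WT against KMF. All genes called higher at that filter were 151, 89, 350, 236, 26 and 198 in the order of the report. Those called lower were 98, 40, 432, 223, 39 and 122. With no low-value filter, FAK-WT had 1 called higher against FAK-R454 (64 of all genes) and 3 against FAK KO (325), and with each chromosome centred 3 against FAK KO (382); the cause was not tested. With no fold threshold FAK-WT had 8 higher and 3 lower than FAK KO, FAK-R454 had 3 and 2, β-catenin ΔGSK 6 and 10, and KMF 6 and 5. FAK-WT then had 3 and 0 against FAK-R454 and 8 and 3 against KMF. The shares of all genes are those printed with the counts by adjusted p alone. With a log2 threshold of 0.5 FAK-WT had 7 higher and 1 lower than FAK KO, β-catenin ΔGSK 4 and 7, KMF 2 and 2, and FAK-R454 1 and 1. At that threshold FAK-WT had 3 and 0 against FAK-R454 and 6 and 0 against KMF. All genes higher were 935, 1534, 1334, 599, 221 and 1019 in that order, and all genes lower 1010, 2338, 1443, 431, 222 and 975.

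Leaving out 1 sample at a time gave 2 to 4 called higher in FAK-WT, 0 to 1 in FAK-R454 and 0 to 1 in KMF against FAK KO, 0 to 3 in FAK-WT against FAK-R454, where all genes called higher ranged from 4 to 109, and 3 to 5 in FAK-WT against KMF; β-catenin ΔGSK stayed at 2 higher and 1 lower. Samples of 1 number correlated in their deviations at 0.61, 0.43 and 0.09 between β-catenin ΔGSK and FAK KO and at -0.34 to 0.19 in the other comparisons, and no label says what a number marks, so the numbers were not taken to pair the samples. With the replicate number as a block the counts higher and lower were 4 and 0, 0 and 1, 2 and 1, 1 and 1, 3 and 0, and 4 and 0 in the order of the report. Across all genes, scaling moved the split by adjusted p from 1851 higher and 2986 lower to 2425 and 2020 in FAK-WT against FAK KO, and from 398 and 523 to 556 and 388 in FAK-WT against FAK-R454 (median-of-ratios), and from 2828 and 4100 to 3435 and 3329 in β-catenin ΔGSK against FAK KO (each chromosome centred). The 10 members at or under 1 FPKM rest on as few as 0 fragments, which limits what they can show, and with 2 FAK-R454 samples each of them weighs heavily.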
